A study of Zea mays with 29 samples.

Results

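The bins described here are all those of chromosome 1 in a table of genomic DNA reads from maize (Zea mays) leaf, chosen by their chromosome label alone. They are the first 190 bins, called the front bins below, and the 121 bins after them, called the end bins. The whole table holds 2127 bins of 1000000 bp on 10 chromosomes, of which the other 1816 lie on chromosomes 2 to 10. The split after bin 190 was chosen with earlier results of these data known, so a higher ratio in the end bins is a description. The 2 groups were 1 DNA library from a trisomic plant, labelled 3DNA, and 1 DNA library from a diploid plant, labelled 6Sa. They belong to a study of maize plants that vary in the dosage of the long arm of chromosome 1, whose other 27 libraries are leaf RNA, so that a trisomic plant would carry 3 copies of that arm and a diploid plant 2. The sources used here do not say to which of the RNA dosage series the DNA plants belong, nor give their age, the inbred background of each plant, or the genome build behind the bins. The labels also do not say how the DNA was extracted. Bins are named by their running number from 1, and no gene or sequence is placed in them. With 1 library a group there is no replicate spread, no test between the groups is possible, and all differences below describe these 2 libraries.

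The number of DNA reads that fall in a stretch of a chromosome grows with the number of copies of that stretch in the plant, so read depth along a chromosome can show where an extra segment begins. In maize, arm dosage is varied with translocations between an ordinary chromosome and the dispensable B chromosome, and 1La, named in the title of the table, is such a translocation with its break in the long arm of chromosome 1. The translocated piece is passed on unevenly because the B centromere often fails to separate in pollen, which gives embryos with fewer or more copies of the arm. Maize lines also differ widely from one another in their repeats and even in their genes, and reads from a diverged line align less completely to a reference.

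Depth was high. The table gives RPKM, reads per kilobase of bin scaled to each library's total over all bins. Every value was a whole multiple of what 1 read is worth, so that read numbers could be recovered. Summed over all bins, the trisomic library had 97289500 reads and the diploid library 133474923. Reads that fell in no bin are not part of these totals. A bin of chromosome 1 held between 24229 and 88232 reads in the trisomic library, with a median of 46590, and between 18219 and 179885 in the diploid library, with a median of 64367. The exact 95% binomial interval of a single bin's ratio therefore reached between 0.945 and 1.78% of the ratio to either side. These intervals cover counting error only, and no molecular identifiers are named for the reads. They say nothing of how much another plant of the same kind would differ.

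Of the reads in all bins, chromosome 1 took 15.2% in the trisomic library and 14.95% in the diploid library. The end bins took 6.37% in the trisomic library and 5.53% in the diploid library. The front bins took 8.87% in the trisomic library and 9.42% in the diploid library. The trisomic plant thus had relatively more reads in the end bins and relatively fewer in the front bins.

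In the end bins the trisomic library ran from 0.271 to 0.907 RPKM with a median of 0.507, and the diploid library from 0.136 to 0.892 RPKM with a median of 0.458. In the front bins the trisomic library ran from 0.249 to 0.765 RPKM with a median of 0.467, and the diploid library from 0.317 to 1.35 RPKM with a median of 0.489. Over chromosomes 2 to 10 the medians were 0.471 RPKM in the trisomic library and 0.474 RPKM in the diploid library. The trisomic median was thus above that of the other chromosomes in the end bins and just below it in the front bins, but the ranges overlapped widely.

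**Figure D1:**
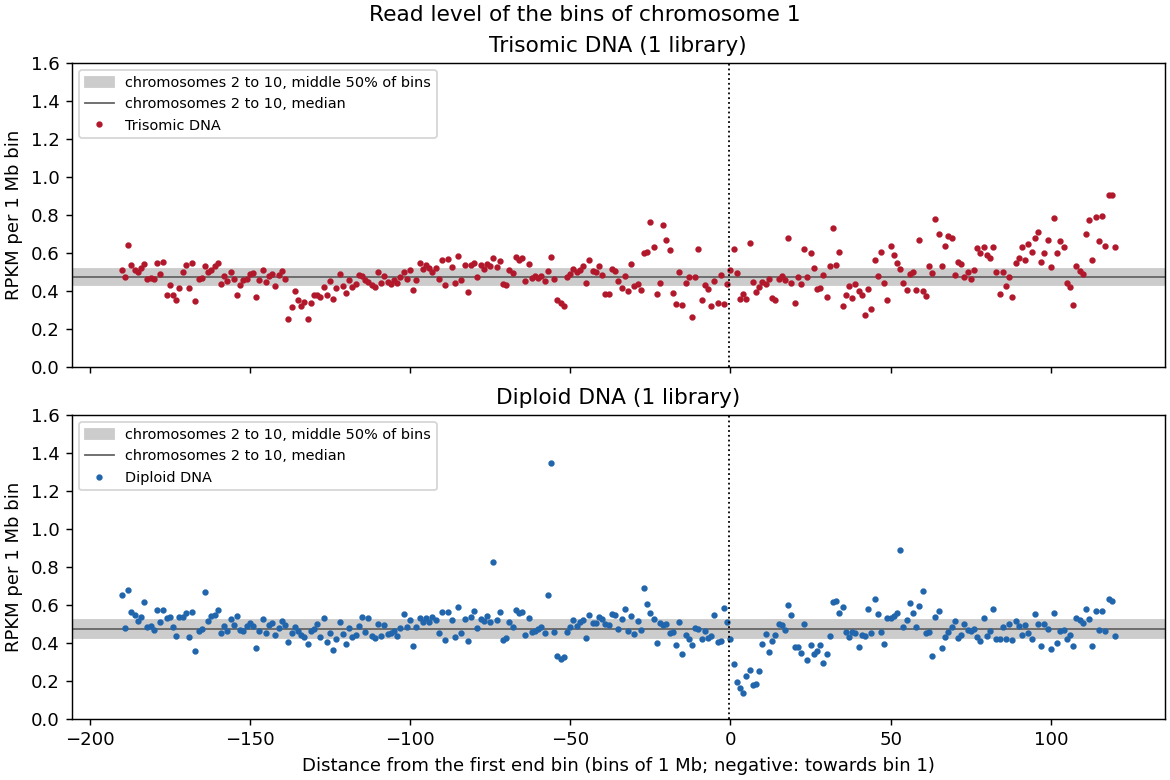
RPKM of each bin of chromosome 1 (points) in the trisomic library (upper panel) and the diploid library (lower panel), by distance from the first end bin in bins of 1 Mb. The grey line and band are the median and the middle 50% of bins of chromosomes 2 to 10 in the same library. Diploid values drop to between 0.136 and 0.289 RPKM just right of the dotted line, and trisomic values climb to 0.907 RPKM near the right end.

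The trisomic-to-diploid ratio of RPKM had a median of 1.17 in the end bins and of 0.972 in the front bins. The fold between these medians was 1.20, well short of the 1.5 that 3 copies against 2 would give. Over chromosomes 2 to 10 the median ratio was 0.994, and this value was used to scale the ratios wherever a scaled ratio is given below. Summed over bins, the ratio was 1.15 in the end bins (exact counting interval 1.1501 to 1.1525) and 0.942 in the front bins (0.9408 to 0.9425). Because RPKM is relative to the library's total over all bins, an extra copy of all the end bins would itself lower every other bin. By that arithmetic, the gained bins would stand at 1.46 and all others at 0.973.

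Ratios in the end bins were widely spread. The middle 50% of ratios in the end bins ran from 0.959 to 1.42, whereas in the front bins it ran from 0.923 to 1.003, and on chromosomes 2 to 10 from 0.966 to 1.02. A scaled ratio was nearest to 1.5, among 1, 1.5 and 2, in 41 of the 121 end bins, or 33.9%. It was nearest to 1 in 73 bins and nearest to 2 in 7. Across all chromosomes 4.98% of bins were nearest to 1.5, and across chromosomes 2 to 10 it was 3.3%. In the front bins, 5 bins were nearest to 1.5 and the other 185 nearest to 1. In 41 of the 121 end bins the trisomic level was below the diploid level. Elsewhere such bins were the majority, since the median ratio was 0.972 in the front bins and 0.994 on chromosomes 2 to 10.

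**Figure D2:**
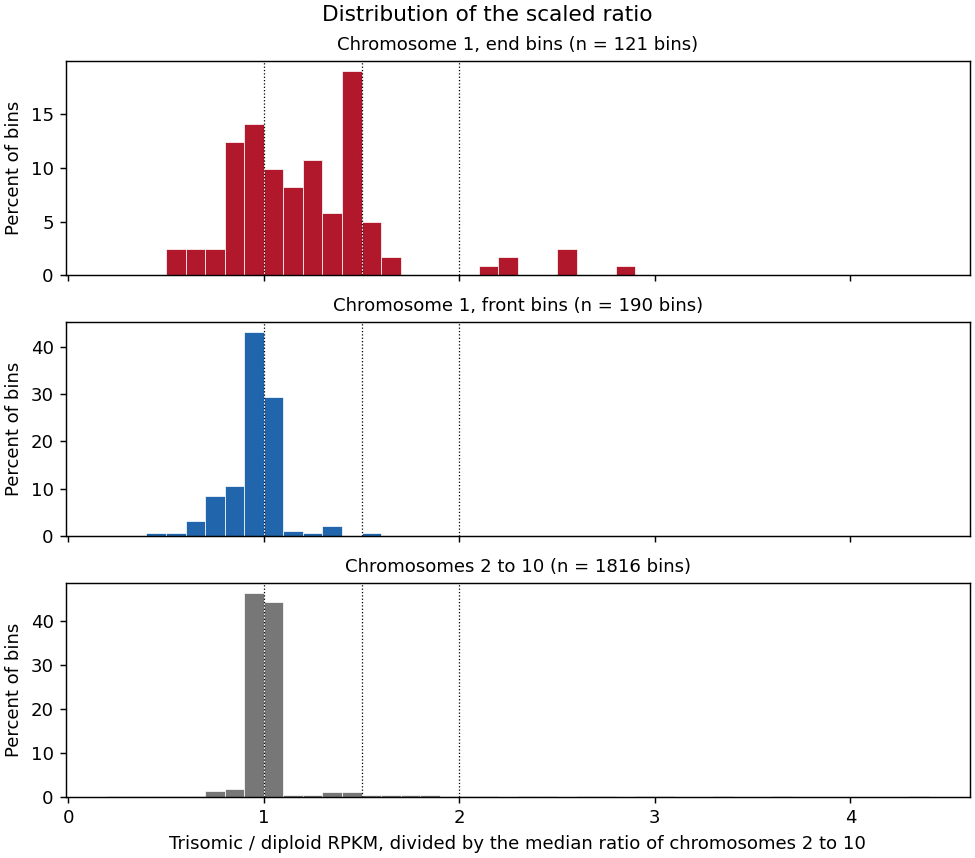
Share of bins (percent) by the ratio of trisomic to diploid RPKM, scaled to the median of chromosomes 2 to 10, in steps of 0.1, for the end bins (top), the front bins (middle) and chromosomes 2 to 10 (bottom). Dotted lines mark 1, 1.5 and 2. The end of chromosome 1 spreads from 0.552 to 2.82 with peaks on either side of its median of 1.18, and the other sets peak near 1.

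A search for the single step that leaves the least squared deviation placed the step between bin 190 and the first end bin, with 190 bins before it at a mean ratio of 0.949 and 121 bins after it at a mean of 1.21. A single step described the chromosome poorly, and 80.9% of the squared deviation remained after it. The place also depended on the measure. It was bin 253 with absolute in place of squared deviations, bin 253 when bins with less than 0.5 times the chromosome 1 median RPKM in either library were left out, and bin 253 when bins 192 to 200 were left out. The place of the step after bin 190 thus rested on the patch of very high ratios that begins next to it.

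The bins beside that step did not form an edge between even plateaus. Bin 188 had 0.484 RPKM in the trisomic library and 0.409 in the diploid library, a ratio of 1.18. Bin 189 had 0.327 in the trisomic library and 0.583 in the diploid library, a ratio of 0.562. Bin 190 had 0.434 in the trisomic library and 0.511 in the diploid library, a ratio of 0.8496. The ratio thus swung to both sides of 1 before the step. The first end bin had 0.511 RPKM in the trisomic library and 0.423 in the diploid library, a ratio of 1.21. Bin 192 had 0.620 in the trisomic library and 0.289 in the diploid library, a ratio of 2.15. From there the diploid level kept falling, to 0.195 RPKM in bin 193 and 0.162 in bin 194.

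**Figure D3:**
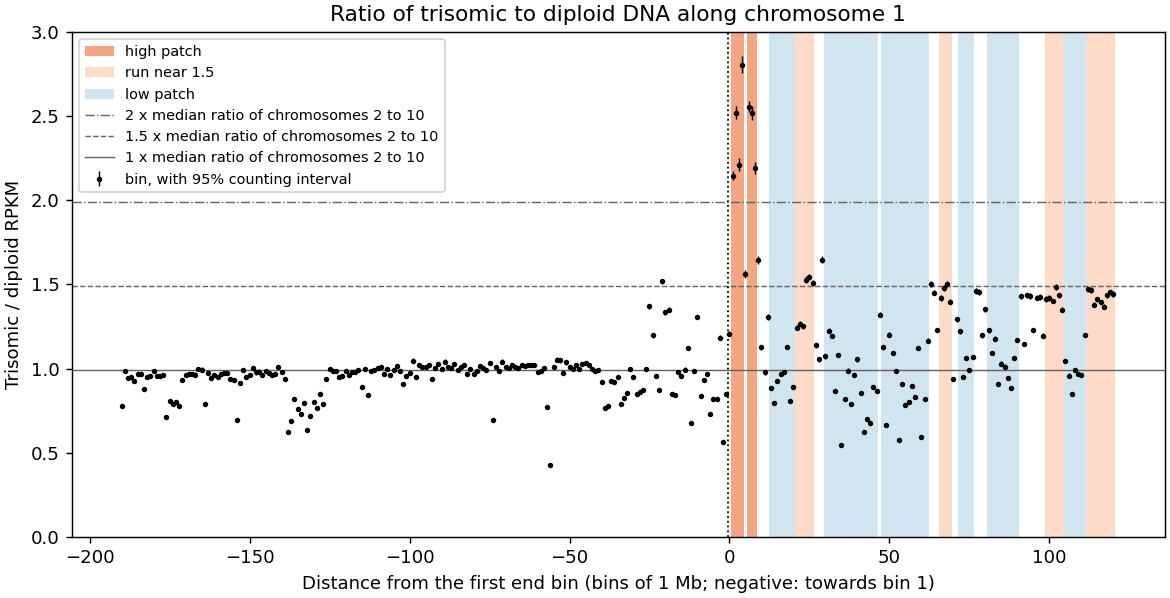
Trisomic-to-diploid ratio of RPKM for the bins of chromosome 1, by distance from the first end bin in bins of 1 Mb, with exact 95% counting intervals as bars. Horizontal lines mark 1, 1.5 and 2 times the median ratio of chromosomes 2 to 10 (0.994), and shading marks runs of at least 3 bins in the end bins whose scaled ratio is nearest 2 (high), nearest 1.5, or nearest 1 (low). Ratios are close to 1 for most of the left part, scatter over the last 40 front bins, reach 2.81 in the high patches and settle between 1.37 and 1.47 at the right end.

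The high patches stood where diploid levels were low. A high patch was a run of at least 3 neighbouring bins with a scaled ratio above the midpoint of 1.5 and 2. The end bins held 2 of them, with 7 bins or 5.79% of the 121. The midpoint was passed by 1.93% of bins across all chromosomes and by 1.87% across chromosomes 2 to 10. In bins 192 to 195 the trisomic library ran from 0.359 to 0.620 RPKM, and the diploid library from 0.136 to 0.289 RPKM. Their ratios ran from 2.15 to 2.81. In bins 197 to 199 the trisomic library ran from 0.395 to 0.653 RPKM, the diploid library from 0.178 to 0.255 RPKM, and the ratios from 2.19 to 2.56. The 2 libraries did not overlap within either patch, which follows in large part from choosing the bins by their ratio. Chromosomes 2 to 10 also held 2 high patches, with 13 bins or 0.716% of their bins, and the longest had 7 bins, against 4 in the end bins.

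In these patches the trisomic medians were near that of the other chromosomes, and the diploid medians were far below it. The patch medians were 0.929 and 0.9497 times the chromosome 2 to 10 median in the trisomic library, against 0.377 and 0.380 times in the diploid library. Single bins varied, and bins 192 and 197, at 0.620 and 0.653 RPKM, were above the 95th percentile of trisomic levels on chromosomes 2 to 10, 0.573 RPKM. Between the patches, bin 196 had a ratio of 1.56, and bin 200, which follows the second patch, had a ratio of 1.64. Over bins 192 to 200 together the diploid level lay under the 5th percentile of chromosomes 2 to 10, 0.289 RPKM, in 8 of 9 bins. It did so in none of the other bins of chromosome 1. The 5 highest ratios of the chromosome were those of bins 195, 197, 193, 198 and 194, in falling order, and bins 195, 194 and 198 were also its 3 lowest diploid levels. Low diploid levels behind high ratios were not particular to chromosome 1. The 34 bins of chromosomes 2 to 10 nearest to 2 had medians of 0.441 RPKM in the trisomic library and 0.214 RPKM in the diploid library. Over the 7 bins of the high patches these medians were 0.447 and 0.180 RPKM.

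Beyond the high patches, the ratio returned to a median near 1 and was higher again towards the end. For description, and after the values had been seen, the bins after bin 200 were divided at bin 253, where a step search within them placed its step. In bins 201 to 252 the median was 0.443 RPKM in the trisomic library and 0.458 RPKM in the diploid library, with a median ratio of 0.973. From bin 253 to the end the median was 0.587 RPKM in the trisomic library and 0.467 RPKM in the diploid library, with a median ratio of 1.29. The diploid level was thus about the same in both stretches, and the trisomic level was higher in the end stretch. Summed ratios were 1.247 from bin 253 on and 0.966 in bins 201 to 252.

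Low patches covered 62 of the 121 end bins, or 51.2%, fewer than elsewhere. A low patch was a run of at least 3 neighbouring bins with a scaled ratio below the midpoint of 1 and 1.5. There were 6, of 5 to 17 bins. Such ratios are the usual ones in the rest of the genome, since 93.1% of bins across all chromosomes and 94.8% across chromosomes 2 to 10 were below that midpoint. Runs of this kind held 94.3% of the bins of chromosomes 2 to 10 and 97.4% of the front bins. Over the 62 bins the median was 0.467 RPKM in the trisomic library and 0.485 RPKM in the diploid library, which is 0.991 and 1.02 times the median of chromosomes 2 to 10. In these bins, then, both libraries had medians close to that of the rest of the genome.

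The 3 low patches nearest to the high ones had summed ratios below 1. In bins 204 to 211 the trisomic library ran from 0.335 to 0.677 RPKM and the diploid library from 0.377 to 0.599 RPKM, with a summed ratio of 0.930. In bins 221 to 237 the trisomic library ran from 0.271 to 0.730 RPKM and the diploid library from 0.342 to 0.633 RPKM, with a summed ratio of 0.889. In bins 239 to 253 the trisomic library ran from 0.352 to 0.667 RPKM and the diploid library from 0.392 to 0.892 RPKM, with a summed ratio of 0.880. The longest of them, bins 221 to 237, had a trisomic median of 0.863 times and a diploid median of 0.965 times the median of chromosomes 2 to 10. Within it, bins 232 to 235 were the only run of at least 3 end bins whose scaled ratios lay below the midpoint of 0.75 and 1. There the trisomic library ran from 0.271 to 0.407 RPKM and the diploid library from 0.436 to 0.580 RPKM, with ratios from 0.623 to 0.852.

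The 3 low patches nearer the end had summed ratios slightly above 1. In bins 263 to 267 the trisomic library ran from 0.459 to 0.540 RPKM and the diploid library from 0.443 to 0.5005 RPKM, with a summed ratio of 1.05. In bins 272 to 281 the trisomic library ran from 0.366 to 0.629 RPKM and the diploid library from 0.414 to 0.577 RPKM, also with a summed ratio of 1.05. In bins 296 to 302 the trisomic library ran from 0.323 to 0.697 RPKM and the diploid library from 0.381 to 0.581 RPKM, with a summed ratio of 1.01. In each of these patches the ranges of the libraries overlapped.

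Runs near the ratio of 3 copies to 2 lay between and beyond these low patches. At least 3 neighbouring bins with a scaled ratio nearest 1.5 were found 4 times, in 25 bins or 20.7% of the end bins. Chromosomes 2 to 10 held 6 such runs with 28 bins, or 1.54% of theirs, and the longest had 7 bins, against 9 in the end bins. Of the 4 runs, only the first had a low diploid median. In bins 212 to 217 the trisomic library ran from 0.438 to 0.622 RPKM and the diploid library from 0.308 to 0.497 RPKM, with a summed ratio of 1.38. The medians there were 1.05 times the chromosome 2 to 10 median in the trisomic library and 0.763 times in the diploid library.

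In the other 3 runs the trisomic library was high instead. In bins 257 to 260 the trisomic library ran from 0.532 to 0.686 RPKM and the diploid library from 0.375 to 0.484 RPKM, with a summed ratio of 1.45. In bins 290 to 295 the trisomic library ran from 0.524 to 0.782 RPKM and the diploid library from 0.370 to 0.558 RPKM, with a summed ratio of 1.41. Trisomic medians were 1.39 and 1.37 times the median of chromosomes 2 to 10 in these runs, and diploid medians 0.932 and 0.980 times.

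The ratio was even at the end of the chromosome. In the last 9 bins the trisomic library ran from 0.559 to 0.907 RPKM and the diploid library from 0.381 to 0.632 RPKM. Their ratios ran from 1.37 to 1.47, with a summed ratio of 1.42 (exact counting interval 1.4198 to 1.4297). Although the levels varied from bin to bin, the 2 libraries varied together, and the bins kept the same order by level in both (Spearman's rho of 1 over 9 bins of the same 2 libraries). These bins were picked as the last run of raised ratios, and a nearly even ratio leaves little room for the order to differ. Bins 309, 310 and 307 had the 3 highest trisomic levels of chromosome 1, at 0.907, 0.906 and 0.794 RPKM. The last bin had 0.629 RPKM in the trisomic library and 0.436 in the diploid library, a ratio of 1.44.

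Ratios from bin 253 to the end ran from 0.848 to 1.503, and they are divided here into 3 ranges whose limits were set after the values had been seen. In 29 of the 59 bins the ratio was between 1.3 and 1.6, with a median of 1.43, and medians of 0.633 RPKM in the trisomic library and 0.456 RPKM in the diploid library. In 12 bins it was between 1.1 and 1.3, with a median of 1.20, and medians of 0.570 RPKM in the trisomic library and 0.489 in the diploid library. In 18 bins it was between 0.8 and 1.1, with a median of 0.978, and medians of 0.478 RPKM in the trisomic library and 0.479 in the diploid library. Here the diploid medians lay between 0.456 and 0.489 RPKM, and the trisomic median was lower where the ratio was lower. The ranges were cut by the ratio of these same levels, so some such link is built in. In bins 201 to 252 the diploid median was lower where the ratio was higher. The trisomic median there also rose with the ratio, up to the range from 1.1 to 1.3. There the 11 bins below 0.8 had medians of 0.361 RPKM in the trisomic library and 0.531 RPKM in the diploid library. The 24 bins between 0.8 and 1.1 had medians of 0.439 RPKM in the trisomic library and 0.476 in the diploid library. The 11 bins between 1.1 and 1.3 had medians of 0.532 RPKM in the trisomic library and 0.435 in the diploid library. The 5 bins between 1.3 and 1.6 had medians of 0.518 RPKM in the trisomic library and 0.354 in the diploid library. The 1 bin above 1.6 had 0.483 RPKM in the trisomic library and 0.293 in the diploid library.

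Raised ratios in the end bins are set here beside those of chromosomes 2 to 10, with the levels behind both. A scaled ratio at or above the midpoint of 1 and 1.5 was found in 48 of the 121 end bins, or 39.7%, where 6.91% of bins passed it across all chromosomes and 5.18% across chromosomes 2 to 10. In the 48 bins the median was 0.605 RPKM in the trisomic library and 0.423 RPKM in the diploid library. In the 94 such bins of chromosomes 2 to 10 the median was 0.464 RPKM in the trisomic library and 0.298 RPKM in the diploid library. The trisomic level was above its 95th percentile on chromosomes 2 to 10 in 29 of the 48 bins and in 3 of the 94. The diploid level was under its 5th percentile in 8 of the 48 bins and in 44 of the 94. Neither was the case in 12 of the 48 bins and in 47 of the 94. Both sets were picked by the ratio of these same levels, so some departure of the levels is built in. Runs of at least 3 bins at or above that midpoint numbered 5 in the end bins, with 34 bins or 28.1%, and 12 on chromosomes 2 to 10, with 81 bins or 4.46%. The longest had 9 bins in the end bins and 15 on chromosomes 2 to 10. The difference between these counts was not tested, since neighbouring bins of 1 library are not independent.

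**Figure D4:**
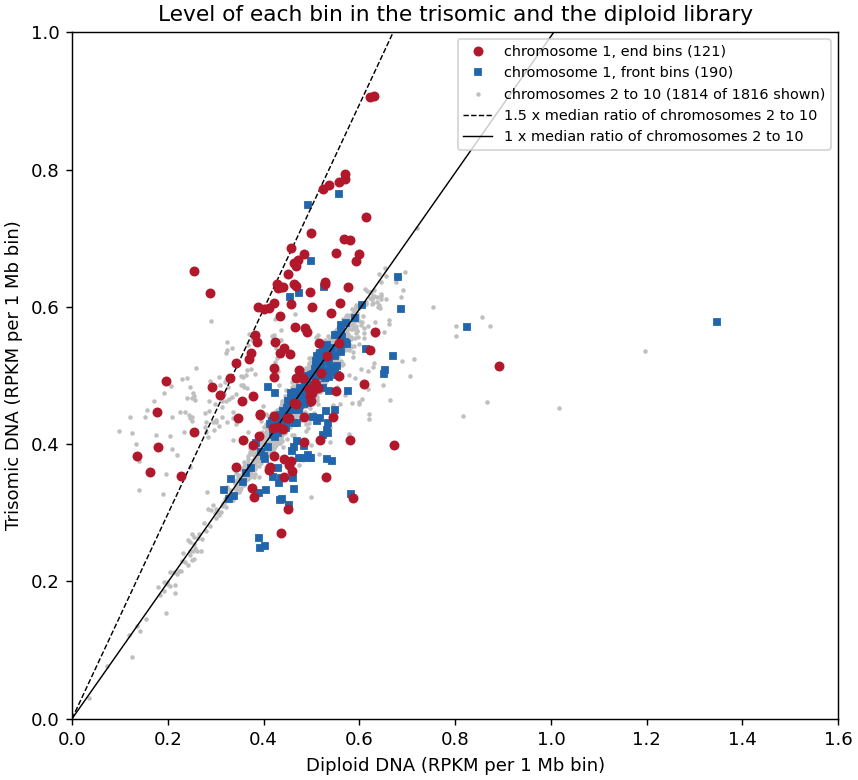
RPKM of each bin in the trisomic library (vertical) against the diploid library (horizontal) for the end bins of chromosome 1 (red), the front bins (blue) and chromosomes 2 to 10 (grey). Lines mark 1 and 1.5 times the median ratio of chromosomes 2 to 10. Many red points lie along the upper line at ordinary diploid levels, whereas the grey points near that line lie mostly at low diploid levels.

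High trisomic levels were frequent in the end bins. The trisomic level was above that 95th percentile in 41 of the 121 end bins, or 33.9%, and in 13 of the 190 front bins, or 6.84%. By the definition of the percentile the share was 5.01% on chromosomes 2 to 10, close to that of the front bins. In 8 end bins and 2 front bins the trisomic level was above the highest trisomic value of chromosomes 2 to 10, 0.714 RPKM. Of the 41 bins, 30 lay at bin 253 or beyond.

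The levels of the 2 libraries followed each other less closely in the end bins than in the front bins as a whole. Across bins, Spearman's rho between trisomic and diploid RPKM was 0.40 over the 121 bins of the end, 0.75 over the front bins and 0.87 over chromosomes 2 to 10. These describe bins that share the same 2 libraries and the same reference. The median difference in ratio between neighbouring bins was 0.149 in the end bins, 0.0307 in the front bins and 0.0239 on chromosomes 2 to 10. Neighbours differed by over 0.25 in 40 of 120 pairs in the end and in 16 of 189 pairs before it. The matching count for chromosomes 2 to 10 is not given here.

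A wide middle range was already present in the last front bins. For this description the front bins were divided after bin 150, once the values had been seen. In bins 1 to 150 the middle 50% of ratios spanned 0.0570, with a median of 0.981 and a range from 0.429 to 1.05. Low ratios occurred there too, and 24 of the 150 bins had a scaled ratio below the midpoint of 0.75 and 1, against 17 of the last 40. In the last 40 front bins the middle 50% spanned 0.154, with a median of 0.925 and a range from 0.562 to 1.52. Raised front bins were found only there, in bins 166, 170 to 172 and 181. In bins 170 to 172 the trisomic library ran from 0.614 to 0.748 RPKM and the diploid library from 0.454 to 0.50 RPKM, with a summed ratio of 1.402. Bin 166 had 0.765 RPKM in the trisomic library and 0.558 in the diploid library, a ratio of 1.37. Bin 181 had 0.620 RPKM in the trisomic library and 0.475 in the diploid library, a ratio of 1.31. In all 5 of these bins the trisomic level was above its 95th percentile and the diploid level was not under its 5th.

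Chromosome 1 also held stretches where the trisomic plant had relatively fewer reads than the diploid plant. A scaled ratio below the midpoint of 0.75 and 1, a limit chosen after the values had been seen, was found in 19 of the 121 end bins, or 15.7%, and in 41 of the 190 front bins, or 21.6%. Across all chromosomes the share was 5.36%, and across chromosomes 2 to 10 it was 2.97%. The front bins held 5 runs of at least 3 such bins, with 26 bins or 13.7% of theirs. The end bins held 1 run with 4 bins or 3.31%, and chromosomes 2 to 10 held 2 runs with 13 bins or 0.716%.

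The longest of these runs in the front bins was bins 53 to 64. There the trisomic library ran from 0.249 to 0.421 RPKM with a median of 0.347, and the diploid library from 0.394 to 0.532 RPKM with a median of 0.457. The 12 ratios ran from 0.622 to 0.8505. In bins 15 to 19 the trisomic library ran from 0.351 to 0.431 RPKM and the diploid library from 0.437 to 0.535 RPKM, with ratios from 0.711 to 0.808. Diploid medians were 0.963 times the median of chromosomes 2 to 10 in the longer run and 1.12 times in the shorter, against trisomic medians of 0.736 and 0.806 times. In the longer run 6 of 12 trisomic levels were under the 5th percentile of chromosomes 2 to 10, 0.349 RPKM. In the shorter run none was, and both libraries were off the median, in opposite directions. The 3 other runs of the front bins were bins 157 to 159, 162 to 164 and 185 to 187, with summed ratios of 0.823, 0.860 and 0.793. In bins 157 to 159 the trisomic median was 0.879 times and the diploid median 1.105 times the median of chromosomes 2 to 10. In bins 162 to 164 the trisomic median was 0.929 times and the diploid median 1.09 times. In bins 185 to 187 the trisomic median was 0.706 times and the diploid median 0.916 times. The balance of the libraries thus varied from run to run. The 3 lowest trisomic levels of the chromosome were 0.249 RPKM in bin 59, 0.251 in bin 53 and 0.263 in bin 179.

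Some other low ratios lay in single bins or in pairs of bins, several of them with high diploid levels. Bin 135 had 0.578 RPKM in the trisomic library and 1.35 RPKM in the diploid library, the lowest ratio of the chromosome at 0.429 (exact counting interval 0.4247 to 0.4329). Bin 134 beside it was low as well, with 0.502 RPKM in the trisomic library and 0.651 in the diploid library, a ratio of 0.771. Bin 244 had 0.514 RPKM in the trisomic library and 0.892 in the diploid library, a ratio of 0.576. Bin 117 had 0.571 RPKM in the trisomic library and 0.824 in the diploid library, a ratio of 0.692. Bins 135, 244 and 117 had the 3 highest diploid levels of chromosome 1, and the trisomic level was not low in any of them. Bin 251 had 0.399 RPKM in the trisomic library and 0.673 in the diploid library, a ratio of 0.593, and bin 252 beside it had a ratio of 0.817. Bin 226 had 0.322 RPKM in the trisomic library and 0.587 in the diploid library, a ratio of 0.548, and its trisomic level was under the 5th percentile of chromosomes 2 to 10. Bin 227 beside it had a ratio of 0.820. The first bin of the chromosome had 0.507 RPKM in the trisomic library and 0.653 in the diploid library, a ratio of 0.777, and bin 2 beside it had 0.983.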

How the data were processed

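Neither the aligner of the DNA reads nor the genome build is given in the sources used here. Bowtie, TopHat, Cufflinks and Cuffdiff are named in the submitters' processing notes, with no role or version. Per the file headers, the deposited values are RPKM over bins of 1000000 bp, in 1 column per library. The deposited ratio column equalled the quotient of the 2 columns to within 0.0005 in every bin, and the quotient was used. Whole reads were recovered for 100% of values (tolerance 0.001 reads), at totals over all bins of 97289500 trisomic and 133474923 diploid reads. No count test was run, since each group had 1 library. The deposited RNA tables place no gene on a chromosome and were not used. Ratios were scaled to the median of chromosomes 2 to 10. The step search needed at least 5 bins on each side. The step search was checked on simulated counts with a single clean step. The patch search was checked on an even simulated ratio with patches set in it. Neither check had scatter like that of these ratios. Intervals are exact (Clopper-Pearson) 95% binomial intervals of the trisomic share of reads (SciPy 1.17.1, Python 3.11.15).

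Named bins were those within 3 of the step, the first and last, all patches, and the 5 most extreme ratios and 3 most extreme levels. Other bins named beside these were chosen after their values were seen. The members and thresholds were chosen with earlier results of these data known.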

Additional observations from a re-analysis of the deposited data

How the results depend on the processing

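No paired analysis was possible because each DNA group had 1 library and the result comes from no test. The step stayed just after bin 190 on the log2 scale and with ratios limited to between 0.5 and 2.5. It moved to bin 253 with absolute deviations, with the low-value filter (which kept 305 bins) and, an alternative chosen after seeing the data, without bins 192 to 200. The median ratio of the end bins, 1.17, became 1.14 with the filter, 1.15 with summed values and 1.21 as a mean. That of the front bins, 0.972, became 0.942 with summed values and 0.949 as a mean. The fold between them, 1.20, became 1.22 with summed values, 1.28 with means, 1.17 with the filter and 1.18 over chromosomes 2 to 10. Chosen after seeing the data, it was 1.16 without bins 192 to 200 and 1.33 for bin 253 and beyond only. It stayed below 1.5 in all of these. Bins in high patches numbered 0, in place of 7, when at least 5 neighbouring bins were asked for. Bins in low patches numbered from 58 to 72 and bins nearest 1.5 from 40 to 46 under the alternatives run. The depth limits little, since single-bin counting intervals were narrow. The lack of a second library of either kind limits all results.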
